A study of Mus musculus with 20 samples.

Results

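Neutrophil granule genes were found in both libraries of TH17 cells sorted from the central nervous system (CNS) and were at or near 0 in the libraries sorted from the ileum. The 6 genes are Ngp, S100a8, S100a9, Camp, Ltf and Lcn2, out of 24862 genes in each count table. They were taken by name because earlier results of these libraries had shown them high in the CNS, so their difference between CNS and ileum is given as a description and without a test. The data are mouse RNA-seq of 12 libraries in 6 groups of 2, all on the C57BL/6 strain. TH17 cells are CD4 T cells that make interleukin-17. The CNS and ileum groups are GFP-positive TH17 cells sorted from suspensions of the tissue, with RNA of 50000 cells per library amplified by a SMART-Seq v4 low-input kit, and the labels name neither the gene that drives GFP nor a treatment of the mice. The Ad-c-Rel and Ad-control groups are TH17(β) cells, grown from naive CD4 T cells with TGF-β1 and IL-6, that carried an Ad- construct for c-Rel or its control. The miR-21-/- and Control groups are TH17(23) cells, grown from naive CD4 T cells of miR-21-/- or control mice with IL-23, IL-1β and IL-6 and prepared with a stranded total RNA kit. All cultures received antibodies against CD3ε and CD28 and neutralising antibodies against IL-4 and IFN-γ. Whether the replicates are separate animals or cultures is not in the labels, and the p-values therefore describe only how far these libraries scatter, which can be technical scatter.

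Neutrophils store antimicrobial proteins in granules that are filled in sequence while the cell matures in the bone marrow. The genes of secondary (specific) granules are switched on together at the myelocyte stage, and the transcription factor C/EBPε is required for much of this programme in mice and humans. Circulating neutrophils carry the proteins but keep little of the granule mRNA, except for S100a8 and S100a9, whose products fill the cytosol. T helper cells are not a known source of the Ngp, Camp or Ltf proteins. IL-17 from TH17 cells induces Lcn2 in epithelial and stromal cells.

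The genes lie on 3 mouse chromosomes (GRCm38.p6, the patch release of the mm10 build named by the submitters). Ngp is at chr9:110419808-110423012 on the plus strand, and it encodes neutrophilic granule protein, a secreted relative of the cathelicidins. Camp, at chr9:109847377-109849456 on the minus strand, encodes the cathelicidin precursor, and Ltf, at chr9:111019292-111042766 on the plus strand, encodes lactoferrin, which binds iron. S100a8 is at chr3:90669071-90670034 on the plus strand and S100a9 at chr3:90692630-90695721 on the minus strand. Their products pair to form calprotectin, which binds zinc and manganese. Lcn2, at chr2:32384637-32387739 on the minus strand, encodes lipocalin-2, which binds bacterial siderophores.

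The 250 bases before the transcription start were read for all 6 genes from the RefSeq promoter table of GRCm38.p6 and searched on both strands for 4 motifs, chosen with the 6 promoters in view. The letters TTGCNNAA, a core of C/EBP sites read as TTNNGCAA on the other strand, were found in 4 of the 6 genes and in 9.56% of 32851 promoters of the same length. The 4 promoters that hold these letters are shown 5′ to 3′ on the strand of the gene, with the matches in capitals. They are Ngp at chr9:110419558-110419807, S100a9 at chr3:90695722-90695971, Ltf at chr9:111019042-111019291 and Lcn2 at chr2:32387740-32387989.
Ngp: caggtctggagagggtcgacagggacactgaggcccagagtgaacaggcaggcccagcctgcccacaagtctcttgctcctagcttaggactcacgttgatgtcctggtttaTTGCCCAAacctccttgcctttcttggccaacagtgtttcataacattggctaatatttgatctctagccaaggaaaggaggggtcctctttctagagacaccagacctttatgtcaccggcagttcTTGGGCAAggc
S100a9: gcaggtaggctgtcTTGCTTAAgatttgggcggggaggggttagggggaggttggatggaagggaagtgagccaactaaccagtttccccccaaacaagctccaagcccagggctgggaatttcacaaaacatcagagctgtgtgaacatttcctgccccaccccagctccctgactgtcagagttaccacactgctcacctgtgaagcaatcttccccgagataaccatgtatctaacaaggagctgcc
Ltf: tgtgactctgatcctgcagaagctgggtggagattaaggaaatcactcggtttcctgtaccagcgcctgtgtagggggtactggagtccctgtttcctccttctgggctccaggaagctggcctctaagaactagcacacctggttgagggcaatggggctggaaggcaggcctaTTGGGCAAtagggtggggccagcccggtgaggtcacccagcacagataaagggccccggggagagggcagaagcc
Lcn2: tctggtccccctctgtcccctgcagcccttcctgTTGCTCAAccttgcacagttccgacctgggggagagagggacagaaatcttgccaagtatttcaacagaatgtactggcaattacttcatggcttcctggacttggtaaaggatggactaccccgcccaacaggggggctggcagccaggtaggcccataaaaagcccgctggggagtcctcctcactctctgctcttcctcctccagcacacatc
Ngp had a match 138 to 131 bases before the start and another 11 to 4 bases before it. The match of Ltf lay 75 to 68 bases before the start and overlapped its CCAAT letters at 76 to 72. S100a9 matched at 236 to 229 and Lcn2 at 216 to 209 bases before the start, both nearer the far end of the window. Camp and S100a8 did not hold these letters in this window. The PU.1 core GAGGAA, which reads TTCCTC on the other strand, was in S100a8, Ltf and Lcn2 and in 23.3% of all promoters, and TATAAA, or TTTATA on the other strand, was in S100a8 and in 12.4% of all. CCAAT, which is ATTGG on the other strand, was in Ngp and Ltf, against 33.8% of all. A match says only that the letters are there.

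The libraries held 15421743 to 36711252 gene counts, and the 4 sorted ones 16255220 to 19228006. Values are CPM (a gene's counts scaled to a common library total of 1000000 gene counts) unless stated, intervals are exact 95% binomial intervals, and intervals and floors cover counting error only. Within the sorted tissues replicate 2 was the deeper library but had fewer genes with a count, at 11545 against 14224 genes in CNS replicates 2 and 1 and 10771 against 13927 genes in ileum replicates 2 and 1. The correlation of replicates on the log2(CPM + 1) scale was 0.970 for the CNS pair and 0.961 for the ileum pair, while the 4 culture groups gave 0.995 to 0.999. The precursor gene Mir21a had 0 counts in both miR-21-/- libraries and 25 and 20 counts in the Control libraries. Rel, the gene of c-Rel, was at 57.5 and 61.9 CPM in Ad-c-Rel and at 10.8 and 7.02 CPM in Ad-control. These values go with the labels.

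The label of the sorted cells was only partly borne out by their markers. All 12 T cell identity markers were detected in all 4 sorted libraries, with a summed level of 5535 and 5690 CPM in CNS against 6486 and 6307 CPM in ileum. The 7 TH17 defining genes summed to 637 and 599 CPM in CNS against 1.05e+04 and 1.15e+04 CPM in ileum, and 6 of the 7 were lower in CNS at an edgeR adjusted p under 0.05. Il17a was at 79.9 and 79.2 CPM in CNS against 2256 and 2579 CPM in ileum. The CNS libraries also carried monocyte, macrophage and microglia transcripts, whose values stand beside the granule genes further on. In these bulk samples, fewer cells of a type and less RNA per cell cannot be told apart.

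Ngp had 833 and 1517 counts in CNS and 0 and 0 counts in ileum. This is 49.5 CPM (46.2 to 53.0) in CNS replicate 1 and 78.9 CPM (75.0 to 83.0) in CNS replicate 2, while the floor of 3 counts, taken as the limit for a count of 0, is 0.185 and 0.176 CPM in the ileum libraries. Against a floor of 3 counts over both ileum libraries, the pooled CNS level was at least 723-fold higher. Camp, the other cathelicidin-like gene, had 204 and 166 counts in CNS, or 12.1 and 8.63 CPM, and no count in ileum, which makes it at least 114-fold higher in CNS. Ltf had 250 and 74 counts in CNS, or 14.9 and 3.85 CPM, and no count in ileum, at least 99.7-fold higher in CNS. For these 3 secondary granule genes every CNS library was far above the floor and every ileum library at 0.

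S100a8 had 1620 and 1690 counts in CNS and 8 and 2 counts in ileum, which is 96.3 and 87.9 CPM in CNS and 0.492 and 0.117 CPM in ileum. The pooled ratio of CNS to ileum was 306 (166 to 638). S100a9 had 797 and 756 counts in CNS and 2 and 0 counts in ileum, or 47.4 and 39.3 CPM in CNS and 0.123 and 0 CPM in ileum, with a pooled ratio of 717 (198 to 5927). The calprotectin pair thus held 10 of the 13 ileum counts of the 6 genes in S100a8 and 2 in S100a9. Lcn2 had 151 and 690 counts in CNS and 0 and 1 count in ileum, or 8.98 and 35.9 CPM in CNS and 0 and 0.0587 CPM in ileum. Its pooled ratio of 777 (139 to 3.07e+04) rests on that single ileum count.

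**Figure D1:**
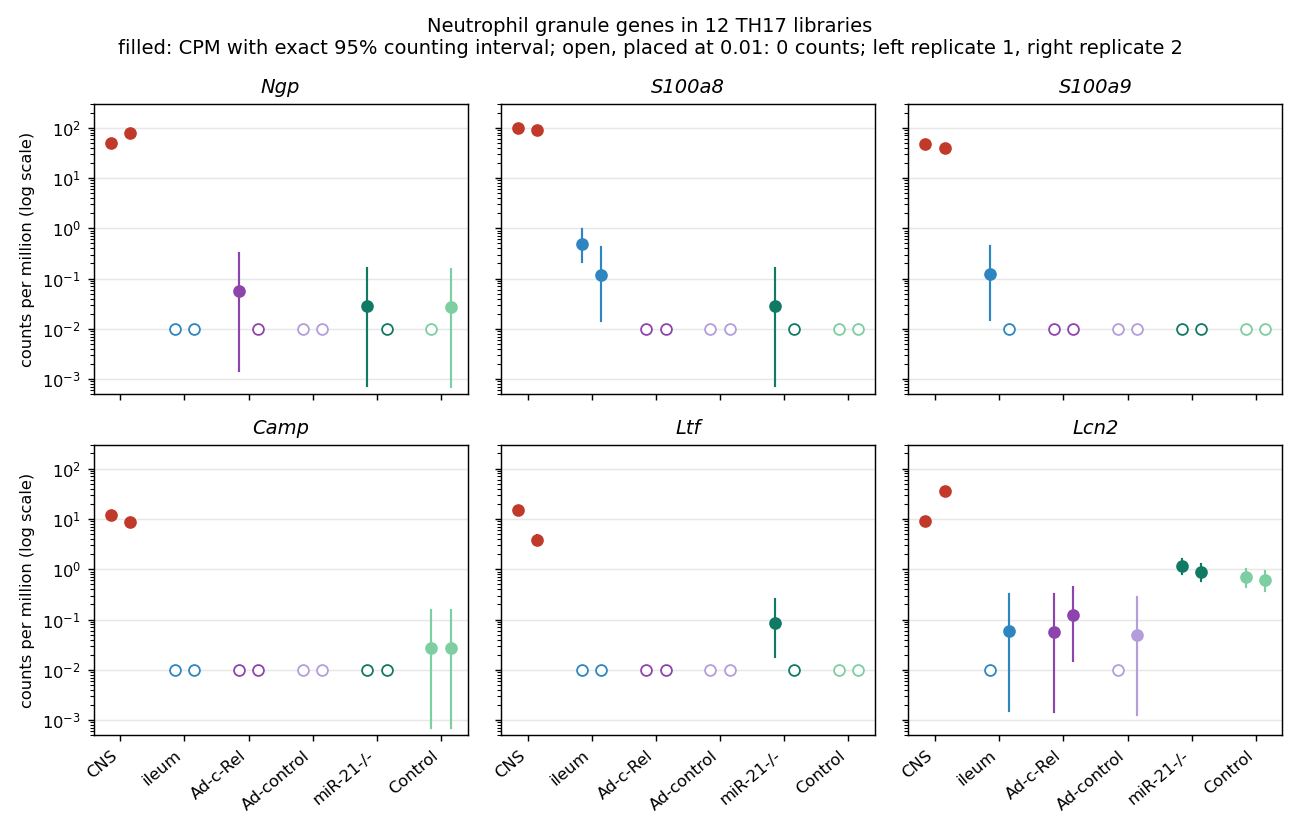
Level of each of the 6 granule genes in the 12 libraries, in CPM on a log axis with exact 95% counting intervals, 2 points per group with replicate 1 on the left. Open points drawn at 0.01 stand for 0 counts. The CNS points lie between 3.85 and 96.3 CPM and no other point is above 1.15 CPM.

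In each of the 6 genes both CNS libraries were above both ileum libraries, as they were for 38.9% of the 12038 genes tested in CNS against ileum. Ngp, Camp and Ltf, 3 of the 6, had no count in either ileum library, which held for 1.41% of the tested genes. Since the genes were chosen for this contrast, nothing is read from these shares. As mean log2(CPM + 1), CNS minus ileum was 5.99 for Ngp, 6.17 for S100a8, 5.38 for S100a9, 3.49 for Camp, 3.13 for Ltf and 4.22 for Lcn2. The mean CPM was 64.2 ± 20.8 in CNS against 0 in ileum for Ngp, and 92.1 ± 5.94 in CNS against 0.305 ± 0.265 in ileum for S100a8 (SD, n = 2 each). It was 22.4 ± 19.0 in CNS for Lcn2 and 9.35 ± 7.79 in CNS for Ltf, so for these 2 genes the SD was close to the mean.

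The 6 genes summed to nearly the same level in the 2 CNS libraries, 229 and 254 CPM, but they divided it differently. S100a8 took 42.0% (40.5 to 43.6) of the 3855 counts of the 6 genes in CNS replicate 1 and 34.5% (33.2 to 35.9) of the 4893 counts in CNS replicate 2. Ngp took 21.6% (20.3 to 22.9) in CNS replicate 1 and 31.0% (29.7 to 32.3) in CNS replicate 2. Ltf took 6.49% (5.73 to 7.31) in CNS replicate 1 and 1.51% (1.19 to 1.90) in CNS replicate 2, whereas Lcn2 took 3.92% (3.33 to 4.58) and 14.1% (13.1 to 15.1). S100a9 took 20.7% (19.4 to 22.0) in CNS replicate 1 and 15.4% (14.5 to 16.5) in CNS replicate 2, and Camp took 5.29% (4.61 to 6.05) and 3.39% (2.90 to 3.94). These intervals cover counting error only and the 6 shares are parts of the same total, so nothing is read from whether they overlap. The pair S100a8 and S100a9 kept close to 1 ratio, 2.03 counts of S100a8 per count of S100a9 in CNS replicate 1 and 2.23 in CNS replicate 2. Lcn2 per count of Ngp was 0.181 in CNS replicate 1 and 0.455 in CNS replicate 2, and Ltf per count of Ngp was 0.300 in CNS replicate 1 and 0.0488 in CNS replicate 2.

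The ratio of CNS replicate 2 to CNS replicate 1 was 4.0 for Lcn2, 1.59 for Ngp, 0.913 for S100a8, 0.830 for S100a9, 0.712 for Camp and 0.259 for Ltf. Lcn2 and Ltf, both binding proteins of the iron-withholding defence, moved by more than 2-fold and in opposite directions. Among 9766 genes averaging 5 CPM or more in CNS, 13.9% differed by 2-fold or more in CPM + 1. The median size of the difference in log2(CPM + 1), whatever its direction, was 0.36, against 0.55 for the 6 genes. With the genes chosen on these same libraries, this is a description.

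**Figure D2:**
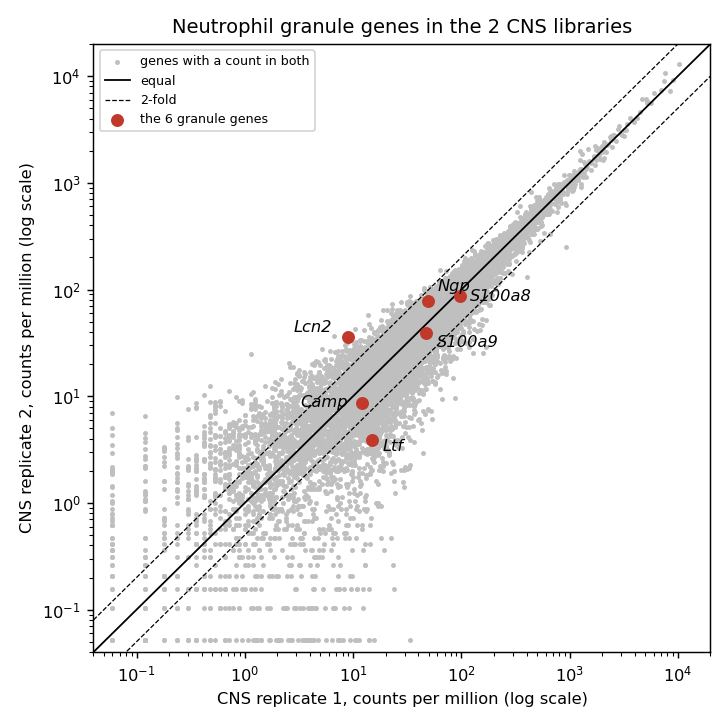
Level of each gene in CNS replicate 2 against CNS replicate 1, in CPM on log axes, for genes with a count in both. The solid line marks equal levels and the dashed lines a 2-fold difference. S100a8, S100a9, Ngp and Camp lie inside the dashed lines, Lcn2 lies above them at 8.98 and 35.9 CPM, and Ltf lies below them at 14.9 and 3.85 CPM.

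The cultured TH17 cells held almost none of these transcripts, apart from Lcn2. The 6 genes summed to 0.114 and 0.122 CPM in Ad-c-Rel, 0 and 0.0502 CPM in Ad-control, 1.29 and 0.885 CPM in miR-21-/- and 0.714 and 0.654 CPM in Control. S100a9 had no count in any of the 8 culture libraries, and S100a8 had 1 count, in miR-21-/- replicate 1. Ngp had 1 count in Ad-c-Rel replicate 1, 1 in miR-21-/- replicate 1 and 1 in Control replicate 2. Camp had 1 count in each Control library, and Ltf had 3 counts in miR-21-/- replicate 1. S100a8 had 8 and 2 counts in ileum and at most 1 in any culture library, so both ileum libraries lay above every culture, although the counting interval of ileum replicate 2 (0.0142 to 0.424 CPM) reaches into those of the cultures. For Ngp, S100a9, Camp and Ltf the order of the groups below the CNS is not resolved at these counts.

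Lcn2 was the only one of the 6 genes with enough counts for a test in a culture comparison, and the only one with counts in every TH17(23) library. It had 40 and 29 counts in miR-21-/-, or 1.15 and 0.885 CPM, and 25 and 22 counts in Control, or 0.687 and 0.599 CPM. Both miR-21-/- libraries were above both Control libraries, which held for 23.7% of 13428 tested genes. The log2 fold change was 0.72 (SE 0.36) with an edgeR adjusted p of 0.306, so the difference did not pass the test. In Ad-c-Rel against Ad-control, where 14.3% of 11711 tested genes were called, none of the 6 had enough counts for a test. No gene of the miR-21-/- comparison passed it (0.00%), while 2821 were at an unadjusted p under 0.05 and DESeq2 called 824. Both TH17(23) groups were above Ad-c-Rel, where Lcn2 had 1 and 2 counts, and above Ad-control, where it had 0 and 1. Those libraries differ in cytokines and depth, and the labels leave the kit of the Ad- libraries unclear. The CNS levels of Lcn2, 8.98 and 35.9 CPM, lay above every culture.

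Genes whose products share the granules of neutrophils were compared between CNS and ileum as background to the 6 genes. Of 14 other secondary granule genes, 7 had enough counts for a test, 5 were higher in CNS and none was lower at an edgeR adjusted p under 0.05, against 9.66% called among all 12038 tested genes (482 higher and 681 lower, but 1285 higher and 637 lower without ileum replicate 1). Genes near 0 in ileum could enter the test through CNS alone, as Hp and Mmp8 did here and Fpr2 and Siglecf in later lists. Their calls, and the counts of higher genes that hold them, are therefore descriptions and give no support. For this reason list medians are given over every gene of a list, tested or not, as CNS minus ileum in mean log2(CPM + 1). For these 14 genes the median was 1.24, against 0.25 over the 12038 tested genes. Chil3, a chitinase-like protein also made by macrophages, was at 1565 and 1321 CPM in CNS against 0.615 and 0.469 CPM in ileum (a log2 fold change of 11.16 with SE 0.24, adjusted p = 9.47e-05). Hp, the haemoglobin-binding haptoglobin, was at 93.7 and 106 CPM in CNS against 0 and 0.0587 CPM in ileum (adjusted p = 0.00127), a pooled ratio of 3332 (598 to 1.32e+05) that rests on 1 ileum count. Mmp8, the neutrophil collagenase, was at 25.7 and 21.1 CPM in CNS and at 0 in ileum, at least 258-fold higher (adjusted p = 0.0160). Cyba and Cybb, the membrane subunits of the phagocyte oxidase, were at 896 and 1182 CPM and at 566 and 496 CPM in CNS, against 343 and 381 CPM and 149 and 229 CPM in ileum. Their log2 fold changes were 1.32 (SE 0.18, adjusted p = 0.0128) and 1.29 (SE 0.23, adjusted p = 0.0278), and Cybb lost its call without CNS replicate 1, where its adjusted p was the highest over the alternatives, at 0.0611. Olfm4 and Bpi, further secondary granule genes, had no count in either tissue. Pglyrp1 was at 28.6 and 21.0 CPM in CNS against 2.645 and 0 CPM in ileum (adjusted p = 0.279). Over the culture libraries Pglyrp1 was at 19.9 to 86.75 CPM, Cyba at 93.9 to 450 CPM and Adam8 at 44.4 to 105 CPM. Every other gene of the list was at 0.790 CPM or less there.

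Of the primary granule genes, which are transcribed earlier, at the promyelocyte stage, Mpo, Elane, Prtn3, Ctsg and Ms4a3 gave low counts in CNS. Mpo, the myeloperoxidase, was at 2.44 and 3.43 CPM in CNS and at 0 in ileum, Elane, neutrophil elastase, at 2.56 and 1.92 CPM in CNS and 0 in ileum, and Prtn3, proteinase 3, at 2.79 and 1.92 CPM in CNS and 0 in ileum. Against the floor they were at least 32.9-fold, 24.6-fold and 25.9-fold higher in CNS, but none passed the test (adjusted p = 0.178, 0.209 and 0.203). Ctsg, cathepsin G, was at 0.476 and 0 CPM in CNS and at 0 in ileum. Of the 8 genes of the list, 6 were tested, 2 were higher and 1 was lower, against the 482 and 681 of 12038 given above, and the median difference of the 8 was 1.71. The 2 that were higher, Ctsc (1688 and 1787 CPM in CNS against 387 and 424 CPM in ileum, adjusted p = 0.00131) and Gusb (371 and 332 CPM in CNS against 28.8 and 50.8 CPM in ileum, adjusted p = 0.00556), encode lysosomal enzymes made by many cell types. Serpinb1a, an inhibitor of elastase, was lower in CNS, at 75.9 and 101 CPM against 473 and 495 CPM in ileum (a log2 fold change of -2.65 with SE 0.20, adjusted p = 0.00233).

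Of 28 tertiary granule and mature neutrophil genes, 22 were tested and 3 were higher and 2 lower in CNS, where 9.66% of all tested genes were called, and the median difference of the 28 was 0.75. The number higher was 2 without either CNS library, 5 without ileum replicate 1 and 6 without ileum replicate 2. Those higher were S100a6, a calcium-binding protein, Clec4e, a C-type lectin receptor of myeloid cells, and Fpr2, a formyl peptide receptor. Clec4e was at 145 and 83.3 CPM in CNS against 4.68 and 1.94 CPM in ileum (a log2 fold change of 4.90 with SE 0.60, adjusted p = 0.00991). Fpr2, which also binds the cathelicidin peptide, was at 19.5 and 16.7 CPM in CNS against 0.123 and 0 CPM in ileum (adjusted p = 0.0422, lost without either CNS library, and between 1.84e-09 and 0.120 over the alternatives). Il1r2, the decoy receptor of IL-1, was lower in CNS, at 351 and 364 CPM against 1510 and 1619 CPM in ileum (a log2 fold change of -2.33 with SE 0.12, adjusted p = 0.0008), and so was Mxd1 (a log2 fold change of -1.18 with SE 0.23, adjusted p = 0.0348, at most 0.0629 over the alternatives, without ileum replicate 1). Csf3r, the receptor of G-CSF, was at 171 and 134 CPM in CNS against 9.41 and 0 CPM in ileum, and Cxcr2, a chemokine receptor of neutrophils, at 7.25 and 7.75 CPM in CNS against 0.554 and 0.352 CPM in ileum. Neither passed the test (adjusted p = 0.15 and 0.188).

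Of the 28 tertiary granule and mature neutrophil genes, 21 had a higher mean log2(CPM + 1) in CNS than in ileum. So did 7279 of the 12038 tested genes, and 9162 of all 24862 genes, tested or not. Retnlg, a resistin-like protein of neutrophils, was at 6.72 and 4.53 CPM in CNS against 0.185 and 0 CPM in ileum, Clec4d, a C-type lectin receptor, at 58.7 and 51.5 CPM in CNS against 3.75 and 0 CPM in ileum, and Trem1, an activating receptor of myeloid cells, at 59.2 and 37.7 CPM in CNS against 5.66 and 10.2 CPM in ileum. None of these 3 passed the test (adjusted p = 0.223, 0.173 and 0.0516). Other genes of the list went the other way or stayed level. Mmp9 was at 33.3 and 3.90 CPM in CNS against 64.6 and 60.6 CPM in ileum. Hdc was at 14.1 and 10.3 CPM in CNS against 30.7 and 49.0 CPM in ileum. Il1b was at 302 and 296 CPM in CNS against 305 and 247 CPM in ileum. Mmp9, Hdc and Il1b were not called either (adjusted p = 0.283, 0.0714 and 0.837). Ly6g, chosen after its values were seen, is the surface marker of mouse neutrophils and was at 0.297 and 0 CPM in CNS and at 0 in ileum. It was at 44.4 and 42.5 CPM in Ad-c-Rel and 51.0 and 45.6 CPM in Ad-control, libraries in which the 6 granule genes together had at most 2 counts. Cebpe, the gene of C/EBPε and likewise chosen after its values were seen, was at 0.773 and 0 CPM in CNS and at 0 in ileum. Of 10 granulocyte transcription factors, 9 were tested, 2 were higher and 3 lower in CNS, and the median difference of the 10 was 0.69. Leaving out any 1 library left 1 gene higher, and 2 were lower without ileum replicate 1. Cebpa, which starts granulocyte development, was at 143 and 108 CPM in CNS against 21.5 and 39.6 CPM in ileum (a log2 fold change of 1.84 with SE 0.37, adjusted p = 0.04, at most 0.120 over the alternatives, without CNS replicate 1). Spi1, the gene of PU.1, was at 214 and 239 CPM in CNS against 99.9 and 114 CPM in ileum (a log2 fold change of 0.88 with SE 0.18, adjusted p = 0.0440), a call that was lost without any 1 of the 4 libraries and with RLE scaling (adjusted p up to 0.192). Ets1, Lmo4 and Runx1, which T cells also use, were lower in CNS, with log2 fold changes of -1.81 (SE 0.11), -3.19 (SE 0.26) and -1.0 (SE 0.17) and adjusted p of 0.00127, 0.00284 and 0.0232. Runx1 lost its call without ileum replicate 1, with an adjusted p of up to 0.059.

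**Figure D3:**
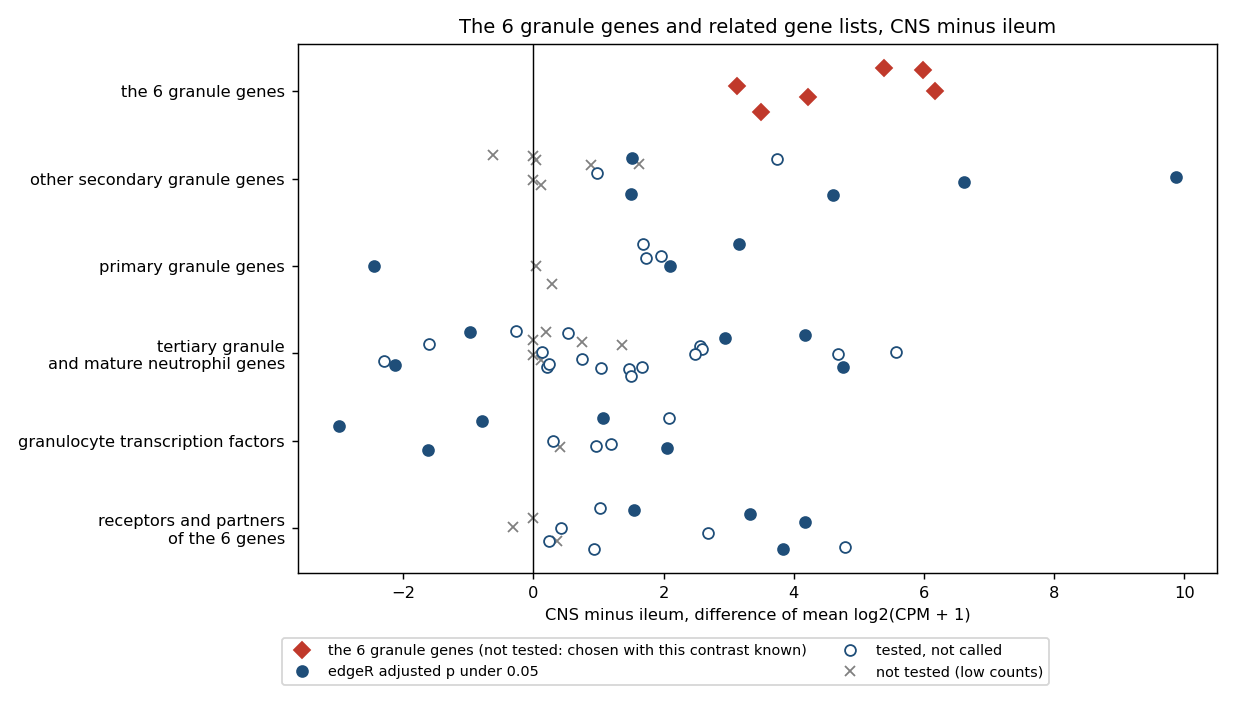
Difference between CNS and ileum in mean log2(CPM + 1) for each gene of the 6 granule genes and of 5 related lists, positive where CNS was higher, with vertical spread added only to separate points. The 6 granule genes lie between 3.13 and 6.17. Filled points passed the edgeR test at an adjusted p under 0.05, open points were tested and did not pass, and crosses had too few counts for a test.

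Receptors and partners of the 6 proteins moved one way where they passed the test. Of 13, 10 were tested, 4 were higher and none was lower in CNS, where 9.66% of all tested genes were called, and the median difference of the 13 was 1.02. With CNS replicate 1 left out 2 were higher, and with ileum replicate 1 left out 6 were. Lrp1, an endocytic receptor that takes up lactoferrin, was at 152 and 153 CPM in CNS against 10.4 and 9.10 CPM in ileum (a log2 fold change of 3.76 with SE 0.27, adjusted p = 0.0019). Cd14, the co-receptor of Tlr4, was at 532 and 664 CPM in CNS against 195 and 213 CPM in ileum (a log2 fold change of 1.35 with SE 0.17, adjusted p = 0.0107). Cd36, a scavenger receptor, was at 123 and 64.0 CPM in CNS against 6.83 and 9.15 CPM in ileum (adjusted p = 0.0126, at most 0.0501 over the alternatives, without CNS replicate 1), and Fpr2 was the fourth. Bsg, a receptor of S100a9, was at 400 and 441 CPM in CNS against 199 and 244 CPM in ileum (adjusted p = 0.0557). Of 12 genes induced by IL-17 or attracting neutrophils, 10 were tested and 1 moved in each direction, and the median difference of the 12 was 0.02. Without CNS replicate 1, 2 were lower. Cxcl2, a neutrophil chemokine, was higher at 1070 and 1112 CPM in CNS against 372 and 442 CPM in ileum (a log2 fold change of 1.23 with SE 0.13, adjusted p = 0.00645), and Cxcl3, a close relative, was lower at 7.43 and 4.32 CPM in CNS against 377 and 394 CPM in ileum (a log2 fold change of -6.24 with SE 0.32, adjusted p = 0.00083).

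Monocyte, macrophage and microglia markers were also higher in CNS than in ileum, a comparison in which 9.66% of all tested genes were called. Of 18 monocyte and macrophage markers, all tested, 15 were higher and none lower in CNS, their median difference in mean log2(CPM + 1) was 2.74, and their summed level was 1.96e+04 and 1.98e+04 CPM in CNS against 3086 and 3251 CPM in ileum. Lyz2, the lysozyme of myeloid cells, was at 5672 and 5640 CPM in CNS against 582 and 708 CPM in ileum. Of 10 microglia markers, all tested, 7 were higher and none lower in CNS, with a median difference of 5.98 and a summed level of 4766 and 4780 CPM in CNS against 111 and 119 CPM in ileum. Tmem119, which marks resident microglia, had 14508 counts over both CNS libraries and 3 over both ileum libraries. Their part in the result was not tested.

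Other marker lists were low, went the other way or rested on 1 gene. Beside the counts that follow, 9.66% of all 12038 tested genes were called, 482 higher and 681 lower in CNS. Of 20 intestinal epithelium markers, 13 had no count in CNS and 10 had none in ileum, and the list summed to 194 and 227 CPM in CNS against 54.8 and 74.3 CPM in ileum, of which Lyz1 made 174 and 208 CPM in CNS and 39.9 and 74.3 CPM in ileum. Of its 4 tested genes Lyz1 alone was higher (adjusted p = 0.0499, lost without either CNS library and with RLE scaling, up to 0.117), and 2 genes were higher without ileum replicate 1. Of 10 B and plasma cell markers 9 were tested and 6 were lower in CNS, with a median difference of -4.5 and a summed level of 347 and 354 CPM in CNS against 4450 and 4304 CPM in ileum. The 10 mast cell, basophil and eosinophil markers summed to 26.3 and 15.2 CPM in CNS against 6.34 and 7.16 CPM in ileum, and of 3 tested genes Siglecf, at 24.3 and 13.3 CPM in CNS and 0 in ileum, was higher (adjusted p = 0.0251, at most 0.106 over the alternatives, without CNS replicate 1). None of 7 erythroid markers had enough counts for a test. Of the 12 T cell identity markers, Cd247, Cd28 and Zap70 were lower in CNS and none was higher, and the median difference of the list was -0.24. With DESeq2, 7 were lower and 1 was higher. Without either ileum library 2 were lower. Cd247 lost its call without CNS replicate 2 or either ileum library, with an adjusted p of up to 0.13.

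**Figure D4:**
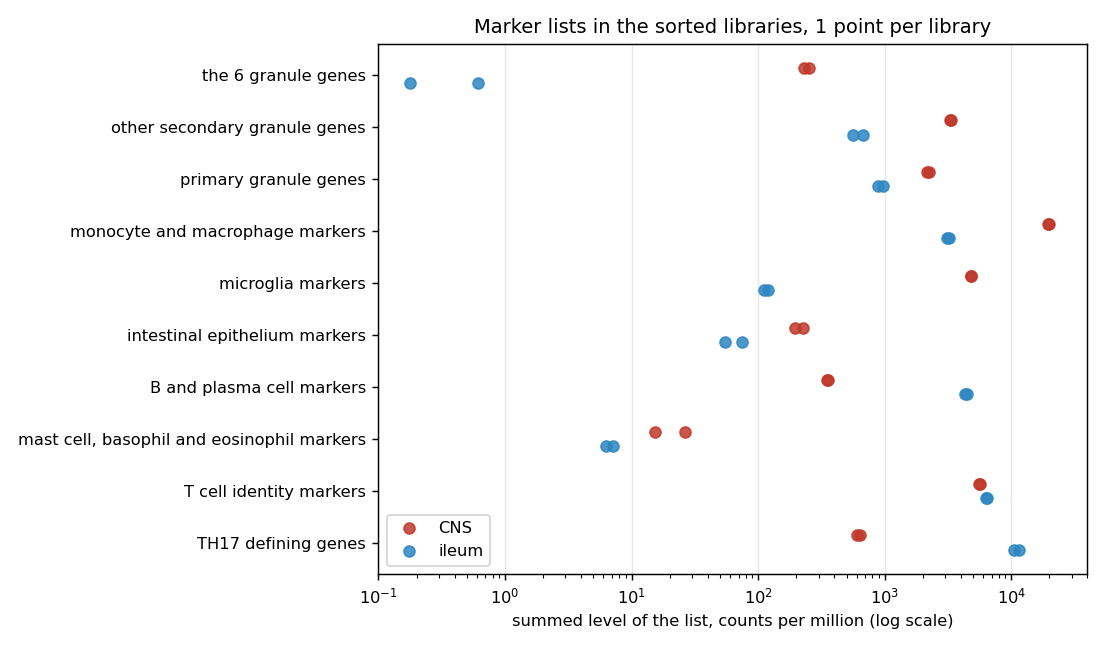
Summed level of each list in the 2 CNS and the 2 ileum libraries, in CPM on a log axis, 1 point per library. The 6 granule genes lie at 229 and 254 CPM in CNS against 0.615 and 0.176 CPM in ileum. Monocyte, macrophage and microglia markers were also higher in CNS, T cell identity markers were close together, and TH17 defining genes and B and plasma cell markers were higher in ileum.

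The neighbouring genes on the chromosomes were compared in the same fit. The 1.2 Mb from Camp to Ltf on chromosome 9 hold Ngp and 28 other protein-coding genes, of which 14 were tested and none was called in either direction, against 9.66% of all tested genes. Over these 14 the median log2 fold change was 0.28, against 0.08 over all tested genes, and a count of 0 among so few says little about them. The 185 kb of chromosome 3 from S100a1 to S100a9 hold 10 other genes beside S100a8 and S100a9, of which 4 were tested and 2 were higher in CNS. S100a4, a calcium-binding protein of motile and myeloid cells, was at 680 and 743 CPM in CNS against 28.7 and 30.6 CPM in ileum (a log2 fold change of 4.39 with SE 0.16, adjusted p = 0.000381). S100a6 was at 305 and 363 CPM in CNS against 37.2 and 48.2 CPM in ileum (a log2 fold change of 2.77 with SE 0.22, adjusted p = 0.00258). S100a13 was at 82.7 and 115 CPM in CNS against 54.7 and 110 CPM in ileum (adjusted p = 0.949).

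The genes most like the 6 over the 12 libraries were found by Pearson's r of log2(CPM + 1), among 10948 genes that averaged 5 CPM or more in some group. Such an r mostly sets the 2 CNS libraries against the other 10 and is a description of libraries that differ in tissue, kit and depth. The mean profile of the 6 was most like those of Lrrc3, Siglech, Batf2, Adamts1, Slc2a5, Hp, Fpr2 and C4b, with r of 0.9986 to 0.9997. Of these, Siglech is on the list of microglia markers and Hp and Fpr2 are on the neutrophil lists. Siglech was at 162 and 154 CPM in CNS and 0 and 0.0587 CPM in ileum.

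The single genes had neighbours of their own, which followed their level in the 2 CNS libraries. Ngp was most like Cd300lb, Crybb1 and F10, and Crybb1 was at 52.6 and 99.2 CPM in CNS, higher in replicate 2 as Ngp was. S100a8 was most like Ccl17, Chil3 and Saa3, and S100a9 most like Fpr2, Adamts1 and Slc1a3. Camp was most like Mgst1, F7 and Serping1. Ltf was most like Adora1 (r = 0.9963), Sall3 and Wdr95, and Adora1 was at 20.4 CPM in CNS replicate 1 and 6.76 CPM in CNS replicate 2. Lcn2 was most like Pyroxd2 (r = 0.9885), Cox6a2 (r = 0.9877) and Rab44 (r = 0.9873), and Pyroxd2 was at 7.31 CPM in CNS replicate 1 and 17.3 CPM in CNS replicate 2. None of the neighbours named for Ngp, Camp, Ltf or Lcn2 was on a neutrophil list, while Chil3 for S100a8 and Fpr2 for S100a9 were.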

How the data were processed

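Whole-number counts per gene symbol were deposited by the authors, 1 table per library, and were used as deposited. Per the submitters' processing notes, the tools include TopHat2 2.1.0, HTSeq 0.11.0, Trim Galore 0.4.4, CASAVA 1.4, DESeq2, HOMER, SAMtools and Bowtie2 on the mm10 build, in roles that the notes do not state. The gene annotation and how strand was treated in counting were not given in the sources used here, so reads of overlapping or antisense genes may not be separated. Per the labels, sorted cells were amplified from low input and read as pairs, and no molecular identifiers are named. Summary lines that name no gene held 14.7% to 26.1% of each table and stayed out of library sizes and tests. The 8 ATAC-seq samples were not analysed here.

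CPM was computed from the gene counts of each library, scaled to a total of 1000000. The 6 genes and the 14 gene lists beside them were chosen with earlier results of these data known. Of 24862 symbols, 24218 were found in the RefSeq table, all 6 genes among them. Each of 3 comparisons used the 4 libraries it compares, in edgeR 4.0.16 under R 4.3.3 (filterByExpr, TMM, two-sided quasi-likelihood F test, Benjamini-Hochberg adjustment over all tested genes, threshold 0.05), and every adjusted p in the text is from that test unless DESeq2 1.42.0 is named. An SE is the size of the log2 fold change divided by the root of its F statistic. The steps were tested on simulated data with the same scatter set for every gene. No gene was set to 0 in a group, so this does not speak for such genes or for the scatter of the sorted libraries. The floor was 3 counts, per library for a level and over both libraries of a group for a fold. From each list up to 5 called genes of smallest p were named, with some of its most abundant genes, and by likeness the 8 genes of highest r to the 6 together and the 3 to each, leaving out predicted, immunoglobulin and T cell receptor names. Genes that define neutrophils and the values of other genes beside them were chosen after their values were seen. Alternatives were DESeq2, RLE scaling, no filter, other pseudocounts, other CPM scalings, a replicate block and leaving out each library.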

Additional observations from a re-analysis of the deposited data

How the results depend on the processing

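The difference of the median of the 6 genes between CNS and ileum, 4.80 on the log2(CPM + 1) scale, was 4.70 with TMM-scaled CPM, 4.71 with RLE-scaled CPM and 4.90 when scaled to the T cell identity markers. It was 7.58 with a pseudocount of 0.1 CPM and 1.98 with 10 CPM, since 0 in ileum makes it depend on the pseudocount. Leaving out 1 library gave 4.75 to 5.21, the highest without CNS replicate 1. The number of called genes in CNS against ileum, 1163, was 3551 with DESeq2, 2413 without the filter and 893 to 1922 when 1 library was left out, the highest without ileum replicate 1, where 1285 were higher and 637 lower. For Ad-c-Rel against Ad-control, 1673 genes were called, and 926 to 1369 with 1 library left out, of which 926 without Ad-c-Rel replicate 2 and 935 without Ad-control replicate 1. For miR-21-/- against Control, 0 genes were called, 824 with DESeq2, 40 without the filter and 3 to 1327 with 1 library left out, the highest without miR-21-/- replicate 1. With the replicate number as a block, 1309, 2802 and 4807 genes were called in the 3 comparisons, and the same-number deviations correlated at 0.078, 0.106 and 0.659. With 2 pairs the numbers do not show a pairing. Under the block Lcn2 kept its log2 fold change of 0.72 (adjusted p = 0.145), and over all its alternatives the value was 0.63 to 0.83 and the adjusted p 0.145 to 0.811, so it passed under none of them. Under the block Fpr2 had an adjusted p of 0.0554. Over the alternatives, 4 to 7 other secondary granule genes, 2 to 5 primary granule genes, 2 to 8 tertiary granule and mature neutrophil genes, 1 to 4 transcription factors and 2 to 7 receptors and partners were higher in CNS. The cause of these shifts was not tested. Depth limits ileum and culture values, where most of the 6 genes had 0 to 3 counts.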

Other observations

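Genes present in CNS replicate 1 only included neutrophil genes, at a share close to that of the whole table. Of the 47 genes on the neutrophil lists with at least 20 counts in CNS replicate 1, 4 had no count in CNS replicate 2, and these were Cd177, Itgb2l, Trem3 and Fpr1. The same held for 876 of 11601 genes of the whole table, so the shares were 8.51% and 7.55%. In the other direction, none of 43 such genes on the lists and 95 of 10890 genes (0.872%) had at least 20 counts in CNS replicate 2 and none in CNS replicate 1. Cd177, a surface protein of neutrophils, was at 8.5 CPM in CNS replicate 1 and 0 in CNS replicate 2. Trem3 was at 6.36 CPM in CNS replicate 1 and 0 in CNS replicate 2, and Itgb2l at 2.44 CPM and 0. Fpr1, a formyl peptide receptor, was at 4.10 and 0 CPM in CNS and 0 and 6.4 CPM in ileum. The 6 granule genes were chosen for their level in CNS and had at least 20 counts in both CNS libraries, so nothing is read from their absence here.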
